A study of Mus musculus with 6 samples.

Results

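Mitochondrial ribosomal protein genes are the nuclear genes whose products join the mitochondrial rRNAs to form the ribosome inside the organelle. They were taken here as every gene symbol in the deposited count table that has the form Mrpl or Mrps, a number and at most 1 further letter. This gave 78 of the 22851 genes in the table, 49 named for the large subunit (Mrpl) and 29 for the small subunit (Mrps). All 78 passed the filter on low counts and were tested.

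RNA was sequenced from cultured radial glia, the progenitors that line the ventricles of the newborn brain, isolated from C57BL/6J mice at postnatal day 0 to 3. The cells were first grown in DMEM with 10% fetal bovine serum and then kept without serum for 6 days, which turns them into multiciliated ependymal cells. One group of 3 libraries came from wild-type mice (WT) and the other group of 3 from Edf1 knockout mice (KO) made with CRISPR/Cas9, so both groups share the strain, age, medium and time. The series design calls the 3 libraries of each genotype biological replicates. The sources used here do not say how many animals gave each culture or whether the deletion covers the whole of Edf1, which encodes a transcriptional coactivator. Between 13071766 and 28087006 reads were counted per library.

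Edf1 itself was measured first, as a check of the labels. Its level was 82.6, 85.9 and 80.2 CPM (counts scaled to the total of the library) in WT 1, 2 and 3, and 9.84, 10.9 and 13.2 CPM in KO 1, 2 and 3. The knockout level was 13.7% of the WT level, with -2.85 as log2 fold change (SE 0.091) and 5.46e-09 as adjusted p (edgeR, quasi-likelihood test).

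The mitochondrial ribosome translates the few mRNAs of the mitochondrial genome, all of which encode subunits of the oxidative phosphorylation complexes. Its rRNAs are transcribed in the organelle, whereas every protein of it is made in the cytosol and imported. Some of these proteins descend from bacterial ribosomal proteins and others exist only in mitochondrial ribosomes. Many nuclear genes for mitochondrial proteins carry promoter sites for nuclear respiratory factor 1 (NRF1), for ETS-family factors such as GABP, and for YY1.

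The promoters of 6 genes are shown as examples, which no rule picked. Levels of Mrpl39, Mrpl24, Mrpl12, Mrpl22 and Mrps27 were lower in the knockout, and that of Mrps6 was not. Each sequence is the RefSeq window from 250 bases before to 50 bases after the annotated start, written 5′ to 3′ on the gene's own strand, in build GRCm38.p6. Capitals mark matches on either strand to GCGCA-N-GCGC (NRF1, written here with its free base N set off), CCGGAAG (ETS factors) or AAGATGGC (YY1). The windows are chr16:84735195-84735494 on the minus strand for Mrpl39, and on the plus strand chr11:120484387-120484686 for Mrpl12, chr11:58171414-58171713 for Mrpl22, chr13:99344536-99344835 for Mrps27, chr3:87919294-87919593 for Mrpl24 and chr16:92058086-92058385 for Mrps6.
Mrpl39: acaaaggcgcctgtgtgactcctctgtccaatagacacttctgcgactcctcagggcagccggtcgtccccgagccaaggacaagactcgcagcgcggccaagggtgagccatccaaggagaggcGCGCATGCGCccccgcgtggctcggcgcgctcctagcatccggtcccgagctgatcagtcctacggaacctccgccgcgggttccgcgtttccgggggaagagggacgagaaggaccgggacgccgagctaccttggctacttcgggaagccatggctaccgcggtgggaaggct
Mrpl12: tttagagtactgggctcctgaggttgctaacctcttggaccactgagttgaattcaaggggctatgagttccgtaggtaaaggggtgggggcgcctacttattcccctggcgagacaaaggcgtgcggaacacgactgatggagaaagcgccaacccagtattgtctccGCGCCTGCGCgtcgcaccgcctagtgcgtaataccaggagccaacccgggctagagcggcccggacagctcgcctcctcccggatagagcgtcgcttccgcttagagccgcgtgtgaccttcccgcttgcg
Mrpl22: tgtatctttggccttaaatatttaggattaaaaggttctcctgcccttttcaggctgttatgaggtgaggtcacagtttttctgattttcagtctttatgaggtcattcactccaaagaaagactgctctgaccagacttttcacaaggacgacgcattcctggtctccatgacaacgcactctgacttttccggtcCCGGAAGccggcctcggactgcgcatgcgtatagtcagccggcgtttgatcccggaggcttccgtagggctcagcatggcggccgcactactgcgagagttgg
Mrps27: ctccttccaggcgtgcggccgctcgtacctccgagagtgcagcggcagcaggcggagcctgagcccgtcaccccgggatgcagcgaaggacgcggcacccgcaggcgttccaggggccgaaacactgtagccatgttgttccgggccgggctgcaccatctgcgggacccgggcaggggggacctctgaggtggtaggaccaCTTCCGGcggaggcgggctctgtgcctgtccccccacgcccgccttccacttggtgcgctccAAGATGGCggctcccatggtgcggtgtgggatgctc
Mrpl24: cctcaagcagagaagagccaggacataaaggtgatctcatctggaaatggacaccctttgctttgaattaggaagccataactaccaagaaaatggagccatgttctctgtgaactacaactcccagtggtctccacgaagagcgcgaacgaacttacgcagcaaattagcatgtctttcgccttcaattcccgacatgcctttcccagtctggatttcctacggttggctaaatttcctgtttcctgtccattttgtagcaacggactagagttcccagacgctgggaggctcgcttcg
Mrps6: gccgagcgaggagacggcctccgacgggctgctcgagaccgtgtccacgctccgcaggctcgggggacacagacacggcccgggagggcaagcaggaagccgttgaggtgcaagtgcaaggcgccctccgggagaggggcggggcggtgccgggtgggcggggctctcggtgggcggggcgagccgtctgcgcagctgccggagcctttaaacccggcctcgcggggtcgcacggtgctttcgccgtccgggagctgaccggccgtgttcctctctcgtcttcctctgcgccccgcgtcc
The capitals are an NRF1 match in Mrpl39 and in Mrpl12, an ETS match in Mrpl22, and an ETS match followed by a YY1 match in Mrps27. Neither Mrpl24 nor Mrps6 held any of these letters in its window. Mrps6 held 4 matches to GGGCGG, the GC box, and Mrpl24 held 0. Mrps10 and Mrpl28, which also fell, are not printed, and their windows held no NRF1, ETS or YY1 match. The window of Mrps33, whose level did not fall, held an ETS match. Whether the motifs go with the fall was not tested, and the printed windows, picked by no rule, cannot show it.

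Over all members, RefSeq windows were found for 69 genes, with 75 windows since some genes have several starts. The ETS letters were in 34.7% of the members' windows, against 15.7% of the 14546 windows of all tested genes and 8.9% of all 32851 windows. The NRF1 letters were in 17.3%, against 9.0% of the tested genes' windows and 4.6% of all. The YY1 letters were in 16.0%, against 3.9% and 2.7%. The share with each of these motifs was thus higher in the members than over the tested genes. GC boxes were in 52.0% of the members' windows against 60.2% of the tested genes' windows, and CCAAT boxes (CCAAT) in 40.0% against 37.6%. At least 1 of the NRF1, ETS and YY1 motifs was in 57.3% of the members' windows and in 25.6% of those of tested genes. These shares describe letters in a fixed window and were not tested.

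As a group, the mitochondrial ribosomal protein genes lay slightly lower in the knockout. The log2 fold change of KO against WT was below 0 for 70 of 78 members, whereas 49.5% of all tested genes lay below 0. The median over the members was -0.13, and over all 14243 tested genes it was 0.0029. In edgeR's quasi-likelihood test with p adjusted by Benjamini-Hochberg across every tested gene, 16 of 78 members (20.5%) fell at an adjusted p under 0.05, against 14.2% of all tested genes. No member rose, against 12.7% of all tested genes. At an unadjusted p under 0.05 in the same test there were 27 lower and 1 higher. The share of all tested genes at that unadjusted threshold was not computed, so these counts have no background. DESeq2 and limma voom each called 15 members lower (19.2%) and 0 higher. Of all tested genes DESeq2 called 13% lower and 11.6% higher, and limma voom 14.4% and 13%. The share that fell is therefore only modestly above the background, and the shift of the group was small in size. In bulk RNA, fewer cells of a type and less RNA per cell cannot be told apart.

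**Figure D1:**
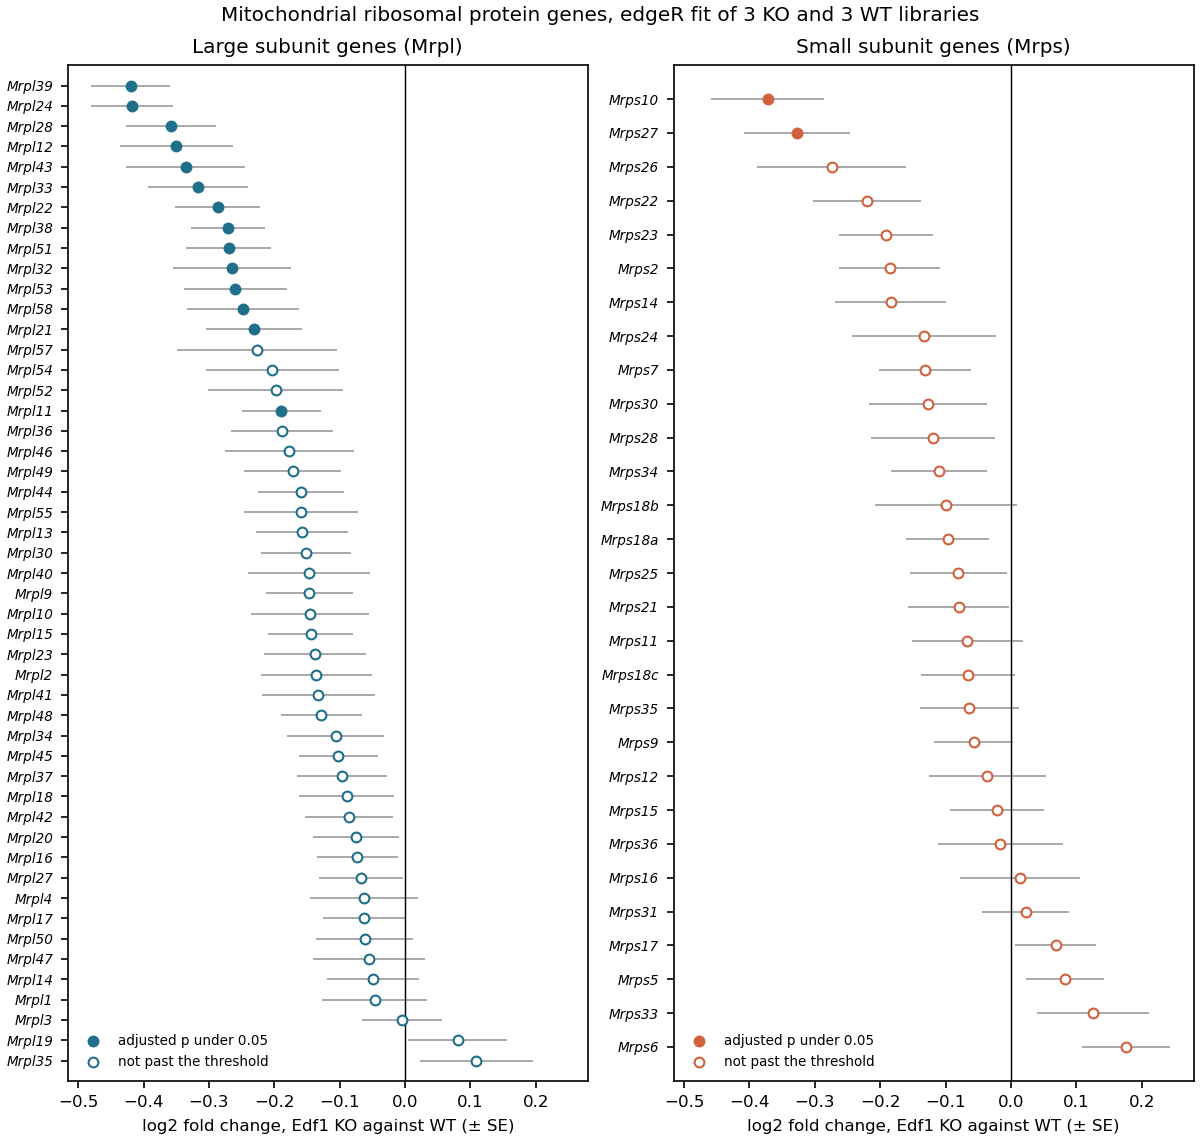
Log2 fold change of Edf1 KO against WT (x axis, ± SE) for each mitochondrial ribosomal protein gene (y axis), large-subunit genes on the left and small-subunit genes on the right, from edgeR's fit of 3 KO and 3 WT libraries. Filled points passed an adjusted p of 0.05. Of the large-subunit genes 47 of 49 lie left of 0 and 14 are filled, and of the small-subunit genes 23 of 29 lie left of 0 and 2 are filled.

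Among the WT libraries, WT 2 stood above the others for these genes. The members' summed level was 3448, 3871 and 3435 CPM in WT 1, 2 and 3, and 3207, 3312 and 3216 CPM in KO 1, 2 and 3. All 3 knockout sums were below all WT sums, and WT 2 was farther from WT 1 and WT 3 than these were from the knockout. WT 2 had the highest level of the 6 libraries for 61 of 78 members. Relative to the mean of WT 1 and WT 3, the median difference of WT 2 on the log2 CPM scale was 0.18 over the members and 0.013 over all tested genes. WT 2 also held the fewest counts, and its deviation from the mean of all libraries had a Spearman correlation with transcript length of -0.407 over 14101 genes. This correlation was -0.0208 in WT 1 and 0.0779 in WT 3, and 0.265, 0.133 and 0.171 in KO 1, 2 and 3. Every KO value thus lay above every WT value, so the trend with length differed by genotype as well. The members are short, with a median transcript length of 1224.5 bases against 2722 for all tested genes.

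The whole table was therefore fitted again without this library, with a correction for transcript length and GC content, and with both. Without WT 2, 15 members fell (background 15.7%), 2 rose (background 14.4%) and the median was -0.076. With an offset for transcript length and GC content fitted in each library, 13 fell (background 17.2%), 3 rose (background 14.4%) and the median was -0.065. With both, 12 fell (background 16.8%), 4 rose (background 15.2%) and the median was -0.037, with 51 members below 0. With the correction, alone or without WT 2, the share of members called lower was slightly under that of all tested genes, and without WT 2 alone it was above it. The median was nearer to 0 in each of these fits. The correction acts on every library, so it also takes out the trend with length by which the genotypes differed, and not that of WT 2 alone. Leaving out KO 3 also mattered: 8 members fell without it (10.3%, against 10.1% of all tested genes).

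**Figure D2:**
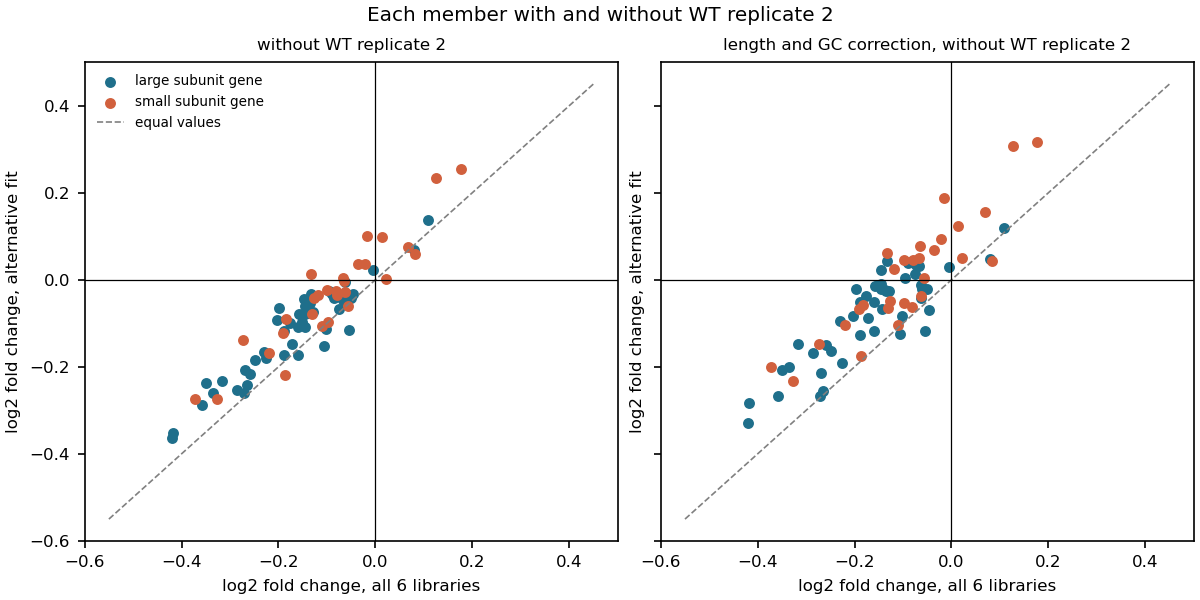
Log2 fold change of each of the 78 members in the fit of all 6 libraries (x axes) against that without WT 2 (left, y axis) and with the length and GC correction and WT 2 left out (right, y axis), with a dashed line at equal values. Most points lie above the line, the median going from -0.13 to -0.076 and to -0.037, while Mrpl39 and Mrpl24 stay at the lower left.

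Length was also examined directly. Of the members, 52 are among the 3529 shortest tested genes, with transcripts of 123 to 1755 bases. Of these 3529 genes 19.0% fell and 7.74% rose, and 10 of the 52 members (19.2%) fell. The median log2 fold change was -0.13 for these members and -0.06 for all 3529 genes, compared with 0.08 for the 3525 longest genes. Without WT 2 the median was -0.025 for the 3529 shortest genes and 0.031 for the 3525 longest, a smaller difference. Among the 12 members in the next 3527 genes by length 4 fell (33.3%), against 17.0% of those genes. Of 8 members in the following 3520 genes 2 fell (25%, against 12.8%), and of 6 members among the longest genes 0 fell (against 8.37%). The shortest members thus fell about as often as other short genes did, with a lower median. The longer members were too few for their shares to be compared closely, and the part of length in the fall was not tested.

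Of the 16 members that fell, 8 were called lower in all 15 alternatives with the threshold at 0.05: Mrpl39, Mrpl24, Mrps10, Mrpl28, Mrpl12, Mrps27, Mrpl22 and Mrpl38. Among the other 8, Mrpl43 was lost without KO 2 or KO 3, and Mrpl33 and Mrpl51 were lost without KO 3. Mrpl32, Mrpl53, Mrpl58, Mrpl21 and Mrpl11 were each lost in 6 or more alternatives. These last 6 names, from Mrpl51 on, fall outside the rule that chose the genes described in full, except Mrpl11.

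The large subunit holds the peptidyl transferase centre and the exit tunnel, and 14 of its 49 genes by name fell (28.6%, against 14.2% of all tested genes). With the length and GC correction and WT 2 left out, 10 of 49 fell, against 16.8% of all tested genes. Mrpl39, a protein found only in mitochondrial ribosomes, was at 117, 134 and 120 CPM in WT 1, 2 and 3 and at 91.7, 93.5 and 91.8 CPM in KO 1, 2 and 3. The KO libraries were nearly level with one another and all lay below the lowest WT library. Its log2 fold change was -0.42 (SE 0.060, adjusted p = 0.000232), and -0.33 (adjusted p = 3.09e-06) with the length and GC correction and WT 2 left out. The gene lies at chr16:84717576-84735742 in GRCm38, and its promoter, printed above, holds an NRF1 match.

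Mrpl24, a counterpart of a bacterial protein near the exit of the tunnel, was at 123, 140 and 122 CPM in WT and at 94.3, 97.3 and 95.8 CPM in KO. Again the groups did not overlap, and the knockout spread was narrow. The log2 fold change was -0.42 (SE 0.062, adjusted p = 0.000319) and -0.28 with the length and GC correction and WT 2 left out. Exons of Rrnad1 on the opposite strand cover 26.3% of its exon bases. Rrnad1 had a log2 fold change of 0.22 (adjusted p = 0.0748), and since the strand setting of the counting is not given, reads of the overlap cannot be assigned.

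Mrpl28, also of bacterial type, was at 79.4, 90.9 and 77.0 CPM in WT and at 61.4, 65.3 and 65.6 CPM in KO (log2 fold change -0.36, SE 0.069, adjusted p = 0.00204). Mrpl22, whose protein lines the exit tunnel, was at 44.1, 47.1 and 42.9 CPM in WT and at 36.1, 37.7 and 36.0 CPM in KO (-0.29, SE 0.065, adjusted p = 0.00588). In both genes each KO library was below each WT library. Mrpl22 shares 43.2% of its 31-base words with the locus Gm6997, so its counts depend on how reads with several matches were treated. Mrpl38, a mitochondria-specific protein of the central protuberance, was at 59.6, 59.4 and 56.3 CPM in WT and at 48.5, 47.7 and 49.1 CPM in KO (-0.27, SE 0.057, adjusted p = 0.00369). Among the 10 called members with the largest falls, Mrpl38 was the gene in which WT 2 was not the highest library.

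Mrpl43, a mitochondria-specific protein, was at 38.5, 46.8 and 40.8 CPM in WT and at 36.6, 33.0 and 30.2 CPM in KO. The highest KO library came close to the lowest WT library, and the fall (log2 fold change -0.34, SE 0.091, adjusted p = 0.0159) did not hold without KO 2 or without KO 3. Exons of Twnk, which encodes the mitochondrial DNA helicase, cover 33.4% of Mrpl43 on the other strand, and Twnk had a log2 fold change of 0.0019. Mrpl33, of bacterial type, was at 75.9, 90.5 and 75.6 CPM in WT and at 64.2, 68.8 and 60.9 CPM in KO (-0.32, SE 0.077, adjusted p = 0.00892). It shares 33.3% of its 31-base words with Gm43809.

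The flexible stalk of the large subunit, which brings translation factors to the ribosome, is built from the products of Mrpl10, Mrpl11 and Mrpl12. Mrpl12 was at 47.3, 59.9 and 47.4 CPM in WT and at 41.0, 39.8 and 39.8 CPM in KO. Its log2 fold change was -0.35 (SE 0.086, adjusted p = 0.00988) with WT 2 and -0.24 without it, the difference lying in the high WT 2 value. Mrpl11 was at 45.4, 47.1 and 45.6 CPM in WT and at 38.9, 41.5 and 40.5 CPM in KO (-0.19, SE 0.061, adjusted p = 0.0366), and this call was lost in 9 of 15 alternatives. Mrpl10, which anchors the stalk, was at 45.8, 52.2 and 40.8 CPM in WT and at 38.6, 45.5 and 40.9 CPM in KO, so that the groups overlapped (-0.15, adjusted p = 0.263). Of the stalk genes 2 of 3 thus passed the test, 1 of them in every alternative, where 14.2% of all tested genes fell. With the length and GC correction, alone or with WT 2 left out, 1 of 3 fell, against 17.2% and 16.8% of all tested genes.

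Small-subunit genes, whose products hold the mRNA and the decoding site, fell in 2 of 29 cases by name (6.9%, against 14.2% of all tested genes). With the length and GC correction and WT 2 left out, 2 fell and 4 rose, against 16.8% and 15.2% of all tested genes. Mrps10, a bacterial-type protein of the head of the subunit, was at 38.5, 48.6 and 40.7 CPM in WT and at 31.6, 32.5 and 33.8 CPM in KO. All KO libraries lay below all WT libraries, and its log2 fold change was -0.37 (SE 0.086, adjusted p = 0.00698). It shares 29% of its 31-base words with AC154457.3. Mrps27, a mitochondria-specific protein with pentatricopeptide repeats, was at 37.6, 40.1 and 33.1 CPM in WT and at 30.5, 28.5 and 29.2 CPM in KO (-0.33, SE 0.081, adjusted p = 0.01004). Its groups did not overlap either, although WT 3 was nearer to KO 1 than to WT 2.

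Mrps6, a bacterial-type protein, was the most abundant member per kilobase of transcript, at 173 CPM per kb in WT, and lay on the other side. It was at 138, 163 and 139 CPM in WT 1, 2 and 3 and at 168, 171 and 158 CPM in KO 1, 2 and 3, with WT 2 inside the KO range. In edgeR's test of all 6 libraries its log2 fold change was 0.18 (SE 0.067), short of the threshold (adjusted p = 0.0723). Without WT 2 it was 0.26 (adjusted p = 0.000145), and with the length and GC correction as well it was 0.32 (adjusted p = 2.18e-06). It was also called higher in fits that kept WT 2: at 0.28 (adjusted p = 0.000287) with the length and GC correction, at 0.18 (adjusted p = 0.0299) with a replicate block and at 0.19 (adjusted p = 0.0463) with scaling by library size alone. Its direction was the same in all 15 alternatives, and in the other 10 it was not called. Exons of Slc5a3, a sodium and myo-inositol transporter gene, and of Gm49711 lie on the same strand and cover 19.9% of Mrps6. Slc5a3 rose, with a log2 fold change of 0.40 (adjusted p = 0.0279), and the part of such shared exons in the Mrps6 value was not tested.

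Mrps33, named here after its values were seen, had a like pattern, at 54.1, 68.6 and 55.03 CPM in WT and at 68.2, 63.3 and 61.4 CPM in KO. Its log2 fold change was 0.13 (adjusted p = 0.309) with all libraries and 0.23 (adjusted p = 0.00381) without WT 2. In both genes the KO libraries all exceeded WT 1 and WT 3, whereas WT 2 reached the KO level. Mrpl19, the least abundant member per kilobase at 3.96 CPM per kb in WT, was at 19.7, 19.4 and 20.3 CPM in WT and at 20.3, 21.6 and 20.9 CPM in KO (0.08, adjusted p = 0.476).

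The genes Mrps18a, Mrps18b and Mrps18c are paralogs that descend from 1 bacterial gene, and the Mrps18a protein sits in the large subunit. Mrps18a was at 37.8, 37.2 and 36.5 CPM in WT and at 35.4, 34.4 and 34.5 CPM in KO, a small separation without overlap (log2 fold change -0.10, adjusted p = 0.293). Mrps18b was at 18.2, 23.0 and 21.2 CPM in WT and at 16.6, 20.4 and 20.4 CPM in KO (-0.10, adjusted p = 0.546). Mrps18c was at 39.0, 45.2 and 40.0 CPM in WT and at 40.6, 38.1 and 39.5 CPM in KO (-0.07, adjusted p = 0.548). None of the 3 passed the test, and the levels of Mrps18b and Mrps18c overlapped between genotypes. Mrps36, whose product is known as a subunit of the oxoglutarate dehydrogenase complex rather than of the ribosome, was at 28.6, 36.0 and 27.4 CPM in WT and at 29.6, 30.2 and 30.3 CPM in KO (-0.02, adjusted p = 0.919). The sign of Mrps36 turned without WT 2 (0.10), as did those of Mrps36 (0.10), Mrps18b (0.0048) and Mrps18c (0.044) with the length and GC correction.

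**Figure D3:**
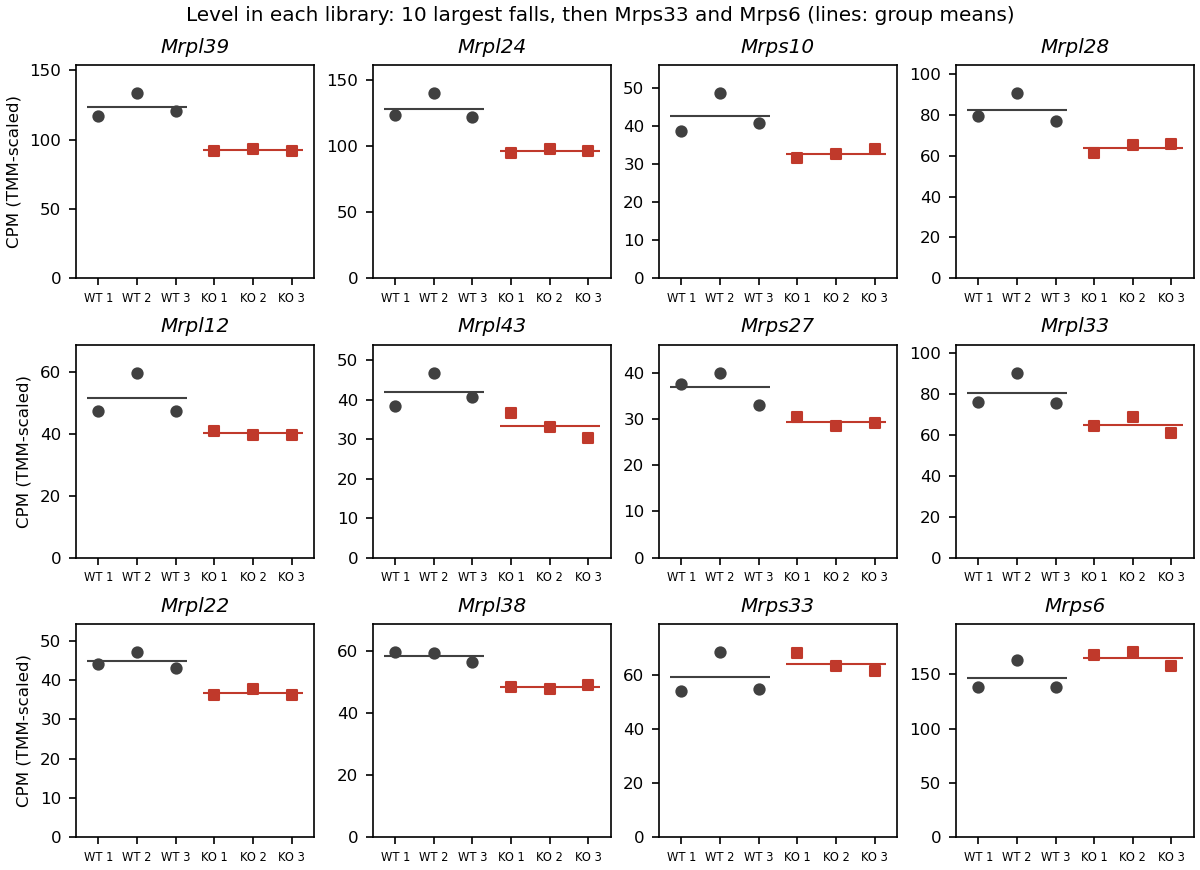
Level (CPM, y axes from 0) in WT 1 to 3 and Edf1 KO 1 to 3, with lines at the group means. Shown are the 10 members with the largest falls among those with an adjusted p under 0.05, then Mrps33 and Mrps6. In Mrpl39 the KO libraries sit between 91.7 and 93.5 CPM and the WT libraries between 117 and 134 CPM, whereas in Mrps6 WT 2 (163 CPM) lies among the KO libraries.

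Counted over all members, every KO library lay below every WT library in 28 of 78 genes, against 22.1% of all tested genes. The reverse held for 2 genes, Mrpl19 and Mrps5, against 21.3% of all tested genes, and neither passed the test. Seen by origin, 8 of 29 bacterial-type large-subunit genes fell (27.6%, median -0.14) and 5 of 19 mitochondria-specific ones did (26.3%, median -0.17). All 19 of the latter lay below 0. In the small subunit 1 of 15 bacterial-type genes (6.67%, median -0.07) and 1 of 9 mitochondria-specific genes (11.1%, median -0.11) fell. Of all tested genes 14.2% fell. With the length and GC correction and WT 2 left out, 6, 4, 1 and 1 genes of these classes fell, in the same order. In that fit 16.8% of all tested genes fell. The remaining 6 members, Mrpl55, Mrpl58, Mrps18a, Mrps18b, Mrps28 and Mrps36, were put in neither class, and Mrpl58 among them fell. Mrpl58 encodes a peptidyl-tRNA hydrolase that rescues stalled ribosomes.

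The large-subunit and small-subunit genes differed in their sums. Large-subunit genes by name summed to 2263, 2525 and 2253 CPM in WT 1, 2 and 3 and to 2033, 2099 and 2045 CPM in KO 1, 2 and 3. Small-subunit genes summed to 1185, 1345 and 1182 CPM in WT and to 1173, 1213 and 1171 CPM in KO. All KO sums of the large subunit lay below all WT sums, whereas those of the small subunit overlapped with WT.

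The ratio of the large-subunit to the small-subunit sum is taken within a library and so does not depend on its total. It was 1.91, 1.88 and 1.91 in WT and 1.73, 1.73 and 1.75 in KO, or 1.90 ± 0.018 (SD, n = 3) and 1.74 ± 0.0083 (SD, n = 3). WT 2 lay beside WT 1 and WT 3 here, and the gap between the genotypes was larger than the spread within them. Median transcript lengths of the subunits were 1230 bases (large) and 1064 bases (small), with 51.3% and 49.7% GC. Counting Mrps30 and Mrps18a with the large subunit, where their proteins sit, and leaving out Mrps36 gave 2.16, 2.12 and 2.15 in WT and 1.97, 1.95 and 1.97 in KO.

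A few abundant genes carried much of this gap, since a sum weights genes by their level. Without Mrps6 the ratio was 2.16, 2.14 and 2.16 in WT and 2.02, 2.01 and 2.02 in KO. Without Mrps6, Mrps33, Mrpl39 and Mrpl24 it lay between 2.02 and 2.04 in WT and between 1.95 and 1.97 in KO. Without the 16 members that fell it lay between 1.24 and 1.27 in WT and between 1.19 and 1.21 in KO. The difference in mean log2 CPM, large-subunit minus small-subunit genes, weights genes equally. It was 0.16, 0.13 and 0.16 in WT and 0.09, 0.07 and 0.07 in KO. The genotypes stayed apart in each of these, with a smaller gap. Medians over genes showed the same order, at -0.15 for the large and -0.08 for the small subunit, and at -0.05 and 0.02 with the length and GC correction and WT 2 left out. The split by subunit, and the genes left out of it, were chosen with the values known, and no test of the ratio was made.

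**Figure D4:**
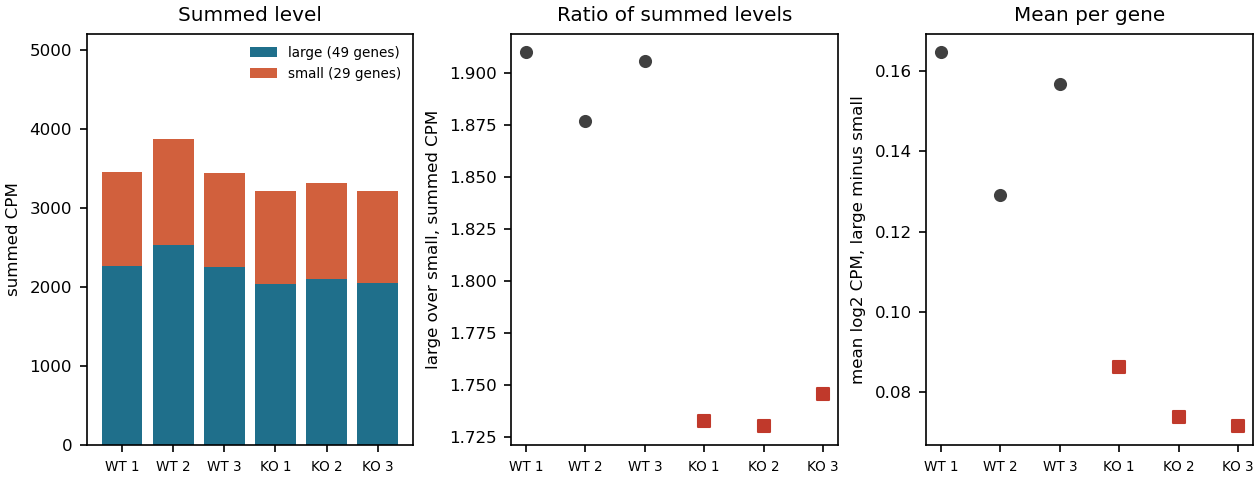
Summed CPM of the large-subunit and small-subunit genes by library (left, stacked), their ratio (middle) and the difference of their mean log2 CPM (right), for WT 1 to 3 and Edf1 KO 1 to 3. The bars start at 0 and the axes of the points do not. The ratio lies between 1.88 and 1.91 in WT and between 1.73 and 1.75 in KO.

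Other genes of the mitochondrial translation system were taken as lists. Of 5 further mitochondrial ribosomal proteins with other names, all 5 lay below 0 and 1 fell (20%, against 14.2% of all tested genes). This was Dap3, a GTP-binding protein of the small subunit, at 143, 156 and 138 CPM in WT and 106, 109 and 107 CPM in KO (log2 fold change -0.44, SE 0.057, adjusted p = 0.000109). Its log2 fold change was -0.36 (adjusted p = 1.29e-05) with the length and GC correction, and -0.33 (adjusted p = 9.28e-07) with WT 2 left out as well. The other 4, Chchd1, Aurkaip1, Ptcd3 and Gadd45gip1, had log2 fold changes between -0.19 and -0.10 and did not pass.

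Of 27 genes for assembly of the mitochondrial ribosome, 2 fell and 2 rose (7.41% each, median -0.08). Both shares were under those of all tested genes, of which 14.2% fell and 12.7% rose. Rpusd3, of the pseudouridine synthase family, fell by 0.51 on the log2 scale and Mterf4, a partner of the rRNA methyltransferase Nsun4, by 0.40. Gtpbp6, a GTPase of the large subunit, rose by 0.39 and Tfb1m, which dimethylates the small-subunit rRNA, by 0.30. Gtpbp6, Rpusd3 and Mterf4 were called in all 15 alternatives at 0.05, and Tfb1m in 10 of them, its call being lost with DESeq2 and without WT 1, KO 1, KO 2 or KO 3. Of 15 translation factors 1 fell and 1 rose (6.67% each, list median -0.02), again under the shares of all tested genes. Mtrf1, a release factor homolog, fell by 0.36, and Tsfm, the exchange factor of the elongation factor Tufm, rose by 0.33. Mtrf1 was called in 11 of 15 alternatives, its call being lost without WT 2, with or without the correction, and without KO 1 or KO 3. Tsfm was called in 10 of 15, its call being lost without WT 1, WT 3 or any 1 KO library. Of 17 mitochondrial aminoacyl-tRNA synthetases 3 fell (17.6%, against 14.2% of all tested genes) and 0 rose (against 12.7%), with a median of -0.07. Vars2 (-0.37) and Fars2 (-0.30, not called without KO 3) were among those that fell. In each of these lists most members did not pass the test.

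The products and partners of the system gave these values. Of 25 genes that maintain mitochondrial DNA and RNA, 3 fell (12%, median -0.04), against 14.2% of all tested genes. Polg2, the accessory subunit of the DNA polymerase, was at -0.58 and the helicase gene Supv3l1 at -0.25. Supv3l1 was not called without KO 1 or KO 3. Of the 13 protein genes of the mitochondrial genome, 0 fell and 1 rose (7.69%, against 12.7% of all tested genes), with a median of 0.03. The gene that rose was ND4L, at 6.25, 8.39 and 8.54 CPM in WT and 12.8, 8.25 and 16.5 CPM in KO (log2 fold change 0.74, adjusted p = 0.0222). KO 2 lay within the WT range for ND4L, and the call was lost without WT 1, KO 1 or KO 3. These levels are low beside ND4, at 2315, 2654 and 2643 CPM in WT and 2498, 2520 and 2551 CPM in KO. The log2 fold change of ND4 was -0.0082 (adjusted p = 0.928). The part of reads with several matches in the ND4L value was not tested. Of 10 regulators of mitochondrial biogenesis, 0 passed in either direction (median 0.02).

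Nuclear genes for the oxidative phosphorylation complexes and genes of the cytosolic ribosome were set beside the members. Of 81 tested oxidative phosphorylation genes, 73 lay below 0, 13 fell (16.0%, against 14.2% of all tested genes) and 1 rose (1.23%, against 12.7%). Their median was -0.11. With the length and GC correction 8 fell and 2 rose (median -0.02), and with WT 2 left out as well 6 fell and 7 rose (median -0.0008). Of all tested genes 17.2% fell and 14.4% rose with the correction, and 16.8% and 15.2% with WT 2 left out as well. Ndufb5 (-0.39) and Ndufa2 (-0.27), subunits of complex I, fell, the latter not called in 4 of 15 alternatives, and Atp5b, the catalytic beta subunit of ATP synthase, rose (0.57). Of 81 cytosolic ribosomal protein genes, 62 lay below 0, 2 fell (2.47%) and 3 rose (3.7%), with a median of -0.04. Their median turned to 0.06 with the length and GC correction, with 1 lower and 14 higher. Of all tested genes 14.4% rose in that fit. With WT 2 left out as well, 0 were lower and 24 higher (median 0.06), where 15.2% of all tested genes rose. No test between these lists was made.

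**Figure D5:**
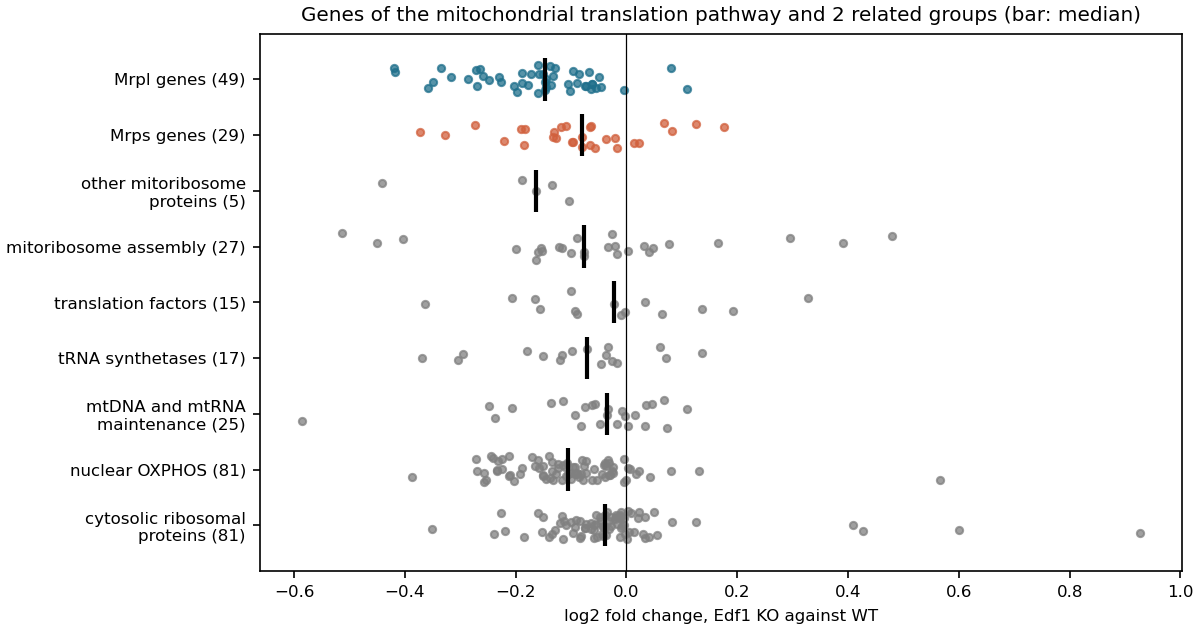
Log2 fold change of Edf1 KO against WT (x axis) for each tested gene (points) of the Mrpl and Mrps genes and 7 other lists (rows, with the number of genes), the vertical bar marking each median. Medians are -0.15 for Mrpl genes, -0.08 for Mrps genes, -0.11 for nuclear oxidative phosphorylation genes and -0.04 for cytosolic ribosomal protein genes, the last of which turned to 0.06 with the length and GC correction.

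Markers of cell types moved with genotype in the same libraries. All 10 ependymal markers fell (median -0.87), their sum going from between 2123 and 2367 CPM in WT to between 1298 and 1346 CPM in KO. Of 10 microglial markers 9 fell (median -0.51), with sums between 1180 and 1231 CPM in WT and between 807 and 847 CPM in KO. Of 9 tested fibroblast and mural markers 8 rose (median 0.80), with sums between 853 and 913 CPM in WT and between 1056 and 1175 CPM in KO. Of 10 radial glial and astrocytic markers 1 fell and 3 rose. Neuronal markers fell in 2 of 7 tested and oligodendrocyte markers passed in 1 of 7 in each direction. Over all tested genes 14.2% fell and 12.7% rose. Of the defining markers, 7 had too few counts to be tested, among them the neuronal Snap25, Gad2 and Slc17a6 and the oligodendrocyte genes Sox10, Mog and Gpr17. The part of cell composition in the values of the mitochondrial ribosomal protein genes was not tested.

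Depth did not limit the detection of any member. The lowest count of a member in a library was 250 and the median 743.5. Levels in WT ran from 19.8 CPM for Mrpl19 to 147 CPM for Mrps6, with a median of 41.9 CPM. Per kilobase of transcript, the median was 38.2 CPM per kb. Of the 78 members, 14 share over 20% of their 31-base words with other annotated transcripts, and 8 have over 20% of their exon bases covered by a gene on the opposite strand, so their counts may include or lose reads in a way the table does not show.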

How the data were processed

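RNA-seq libraries of 3 WT and 3 Edf1 KO cultures were made with the MGIEasy mRNA kit from RNA extracted in TRIzol, as the labels state. The authors deposited whole-number read counts per gene symbol, 1 column a library. FastQC 0.11.2, cutadapt 1.11, HISAT2 2.1.0 and build GRCm38 are named in the submitters' processing notes; the counting program, annotation, strand setting and treatment of reads with several matches are not given in the sources used here.

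Counts were analysed in R 4.3.3 on all 6 libraries with no covariate: filterByExpr (14243 of 22851 genes kept), TMM scaling and the quasi-likelihood test of edgeR 4.0.16, with Benjamini-Hochberg adjusted p-values across all genes kept and 0.05 as threshold. The script was tested on simulated data. CPM were computed on TMM-scaled library sizes. DESeq2 1.42.0, limma 3.58.1 (voom), other filters and scalings, a replicate block, each library left out, and an offset per library for transcript length and GC content (natural splines, 4 degrees of freedom) were alternatives. Lengths, GC content, exon overlap and shared 31-base words come from the GENCODE M21 annotation, with lengths for 99.0% of tested genes. Promoter windows come from RefSeq (GRCm38.p6); 9 members have none there and are not described by motif.

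The members and all lists were chosen with earlier results of these data known. Genes given in full are, by rule, the 10 called members with the largest fall and any that rose, the Mrps18 paralogs, the stalk genes, Mrps36, the most and least abundant member per length, and, of each other mitochondrial list, the 2 called genes with the largest fall and rise. Totals of 13071766 to 28087006 counts per library limit the precision, and SEs cover the spread between libraries.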

Additional observations from a re-analysis of the deposited data

How the results depend on the processing

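With edgeR's test at 0.05, 3833 genes were called in all. Over the alternatives that leave out 1 library, members called lower ranged from 8 (without KO 3) to 16, members called higher from 0 to 2, called genes from 2658 to 4340, and the members' median log2 fold change from -0.16 to -0.08. In these fits 9.97% to 15.7% of all tested genes were called lower and 8.36% to 14.4% higher. At an adjusted p of 0.01, 9 members (11.5%) were called, all lower, and 2213 genes. Of all tested genes 8.76% were lower at that threshold. Members called higher numbered 1 with library size alone as scaling, 1 with the replicate block and 3 with the length and GC correction. They numbered 2 without WT 2 and 4 with the correction and WT 2 left out, a combination chosen after seeing the data. In the last the median was -0.037. In the fits with a member called higher, 13.5% to 15.2% of all tested genes were called higher. Among the genes described in full by rule, those whose log2 fold change changed sign were Mrps36 (0.0082 with voom, 0.10 with the length and GC correction, 0.10 without WT 2, 0.19 with both, and -0.085 to 0.10 with 1 library left out), Mrps18b (0.0048 with the correction, 0.045 with both) and Mrps18c (0.044 and 0.077); Mrps36 was called higher with both, none of these genes was called with all libraries and no correction, and the cause was not tested. Over all 78 members, 70 lay below 0 with all libraries and 51 with the correction and WT 2 left out. The replicate number as a block gave 17 members lower and 1 higher among 4065 called genes. With the block 14.8% of all tested genes fell and 13.8% rose. Samples of the same number deviated together with correlations of 0.0693, 0.0604 and 0.0372, all under 0.1. With 3 libraries a group, these values cannot settle whether cultures of the same number were paired. Of the other values of single genes under alternatives, 484 kept direction and side of the threshold, 47 lost the call and 5 gained it. These counts include the adjusted p of 0.01, where the fit is unchanged and a call can be lost through the stricter threshold alone. The unstated strand setting and treatment of reads with several matches, and 3 libraries a group, limit every value.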
